A study of Rattus norvegicus with 16 samples.

Results

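A list of 10 genes was followed that mark lung macrophages, above all those of the air spaces, or serve the uptake, binding and breakdown of lipid and matrix. The list held Mrc1, Marco, Cd68, Itgax, Pparg, Fabp4, Ctsk, Gpnmb, Chi3l1 and Spp1. A gene was taken where a probe set was annotated to its symbol alone, and 9 of the 10 had 1 such probe set among the 14506 genes measured. Itgax, an integrin chain of alveolar macrophages and dendritic cells, had none, and its expression is not analysed here. The arrays came from the right lungs of 16 male Sprague-Dawley rats in 4 groups of 4. A set of rats stayed in normoxia and another in hypoxia, both without drug, a further set was in hypoxia on estradiol, and the last was in hypoxia on estradiol plus fulvestrant. Hypoxic rats spent 2 weeks at low pressure (362 mmHg, as much oxygen as 10% at sea level). Estradiol (E2), the main circulating estrogen, was released from implanted osmotic pumps, 75 µg/kg/day over 3 weeks, starting 1 week ahead of hypoxia. Fulvestrant (ICI 182,780) blocks the estrogen receptors, and the daily dose injected was 3 mg/kg. Ages, and whether the rats without drug had empty pumps, are not given in the labels. Each rat gave 1 array.

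Alveolar macrophages live in the air spaces and clear surfactant, the lipid film made by alveolar type 2 cells. The nuclear receptor encoded by Pparg, switched on by fatty acids, is needed for their formation and for their handling of lipid, and Fabp4, a fatty acid carrier in the cytosol, is one of its known target genes. Mrc1 (the mannose receptor CD206) and Marco (a scavenger receptor) bind particles at the surface, and Cd68 is a glycoprotein of the late endosome and lysosome. Ctsk (cathepsin K, a collagen-cutting protease) and Gpnmb (a membrane glycoprotein) belong to the lysosome, while Chi3l1 (a chitinase-like protein) and Spp1 (osteopontin, an integrin ligand) are secreted. None of these genes is restricted to 1 cell type: Pparg and Fabp4 are also used by fat cells and Fabp4 by capillary endothelium. In RNA of whole lung, a change in the number of cells of a type and a change in RNA per cell cannot be told apart.

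All arrays had the surfactant genes of lung, with Sftpc, of alveolar type 2 cells, at a mean log2 value of 13.97 in normoxia and 13.90 in hypoxia. For normoxia replicate 4 the sample title gives normoxia while the treatment field gives hypoxia. It was kept as normoxia. Its log2 value lay nearer to the mean of the other normoxia arrays than to the hypoxia mean for 6 of the 9 genes. For Mrc1, Marco and Spp1 it lay nearer to the hypoxia mean. It lay below every hypoxia array for 4 of the 5 listed genes that passed the test between these groups. Those 5 were called with this array counted as normoxia and enter both counts, so neither count can decide its label. The labels give no array batch, and the samples were submitted group by group, so that a batch and the treatment cannot be told apart. Differences are log2 differences with their standard error (SE) or 95% interval, and a gene is called changed at an adjusted p under 0.05 over all 14506 genes (limma, Benjamini-Hochberg).

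The start regions of 4 of the genes are printed, chosen after the motif search as those that hold both GAGGAA and CACATG. They are RefSeq windows of build GRCr8, 5′ to 3′ on the gene's strand, from 250 bases before the start site to 50 after it. Capitals mark matches on either strand to GAGGAA (the core read by PU.1, the master factor of macrophages), CACATG (an E-box read by factors of the MiT family, which switch on lysosome genes) and TGACTCA (read by AP-1). The other motifs searched were the E-box CACGTG, the nuclear receptor element AGGTCA and ACGTG, the core of the hypoxia response element, which overlaps CACGTG. The Mrc1 window is chr17:82157475-82157774 (+), that of Ctsk chr2:185747298-185747597 (+), that of Gpnmb chr4:79340878-79341177 (+) and that of Cd68 chr10:54882392-54882691 (-).
Mrc1: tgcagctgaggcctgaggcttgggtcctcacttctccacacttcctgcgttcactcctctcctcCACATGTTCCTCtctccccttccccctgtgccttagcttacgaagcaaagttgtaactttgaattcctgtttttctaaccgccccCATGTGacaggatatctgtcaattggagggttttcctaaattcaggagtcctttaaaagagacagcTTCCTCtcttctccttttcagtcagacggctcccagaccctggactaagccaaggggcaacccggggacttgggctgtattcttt
Ctsk: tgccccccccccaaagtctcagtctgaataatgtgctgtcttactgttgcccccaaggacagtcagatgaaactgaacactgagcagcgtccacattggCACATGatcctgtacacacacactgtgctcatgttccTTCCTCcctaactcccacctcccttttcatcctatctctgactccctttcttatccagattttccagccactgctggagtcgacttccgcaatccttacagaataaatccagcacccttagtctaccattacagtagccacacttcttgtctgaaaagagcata
Gpnmb: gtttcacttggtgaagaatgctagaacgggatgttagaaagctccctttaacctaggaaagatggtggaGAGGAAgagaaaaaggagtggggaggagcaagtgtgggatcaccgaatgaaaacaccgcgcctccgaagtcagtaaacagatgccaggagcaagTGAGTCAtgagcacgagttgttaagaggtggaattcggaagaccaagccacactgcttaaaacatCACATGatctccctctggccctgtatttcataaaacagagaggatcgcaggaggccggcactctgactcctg
Cd68: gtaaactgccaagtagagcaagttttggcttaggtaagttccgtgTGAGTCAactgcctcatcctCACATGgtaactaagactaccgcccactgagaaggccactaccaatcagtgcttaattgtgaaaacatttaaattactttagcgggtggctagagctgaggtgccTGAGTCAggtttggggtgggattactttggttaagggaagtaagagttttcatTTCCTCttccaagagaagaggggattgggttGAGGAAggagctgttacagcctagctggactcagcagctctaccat
Of the 10 genes, 9 had at least 1 window. Fabp4 had none, and Itgax, which has no expression value here, is among the 9. Pparg had 2 windows, so that there were 10 windows, and each count of genes below is also the count of windows. GAGGAA was found in the windows of 6, against 27.6% of all 33469 rat windows, and CACATG in the windows of 4, against 14.0% of all windows. Those 4 are the genes printed. In Mrc1 a CACATG match directly precedes a GAGGAA match on the other strand, and a further CACATG match begins at position -101 from the start site. In Gpnmb the match begins at position -22. TGACTCA was found in 4 genes (Gpnmb, Cd68, Pparg and Itgax; 4.63% of all windows) and AGGTCA in 2 (Chi3l1 and Itgax; 16.2% of all windows). No window of these genes held CACGTG (6.42% of all windows) or ACGTG (19.3% of all windows). A match says that the letters are there, and not that a factor binds.

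Hypoxia against normoxia asks what low oxygen alone did. The lipid regulator Pparg, the lipid carrier Fabp4, the lysosomal genes Ctsk and Gpnmb and the secreted Chi3l1 were all higher after 2 weeks of hypoxia, by 1.55-fold to 1.98-fold. The surface receptors Mrc1 and Marco differed by 0.17 and 0.09 on the log2 scale and did not pass the test. In all, 5 of the 9 genes were called higher and 0 lower, where 3.21% of all genes were called higher and 2.43% lower. The genes and lists were chosen with earlier results of these data known, so such shares give a scale and are no test of them. All 9 differences were positive, with a median of 0.79 against 0.03 over all genes. For 4 of the 9 genes every hypoxia array stood above every normoxia array, as was so for 6.74% of all genes.

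**Figure D1:**
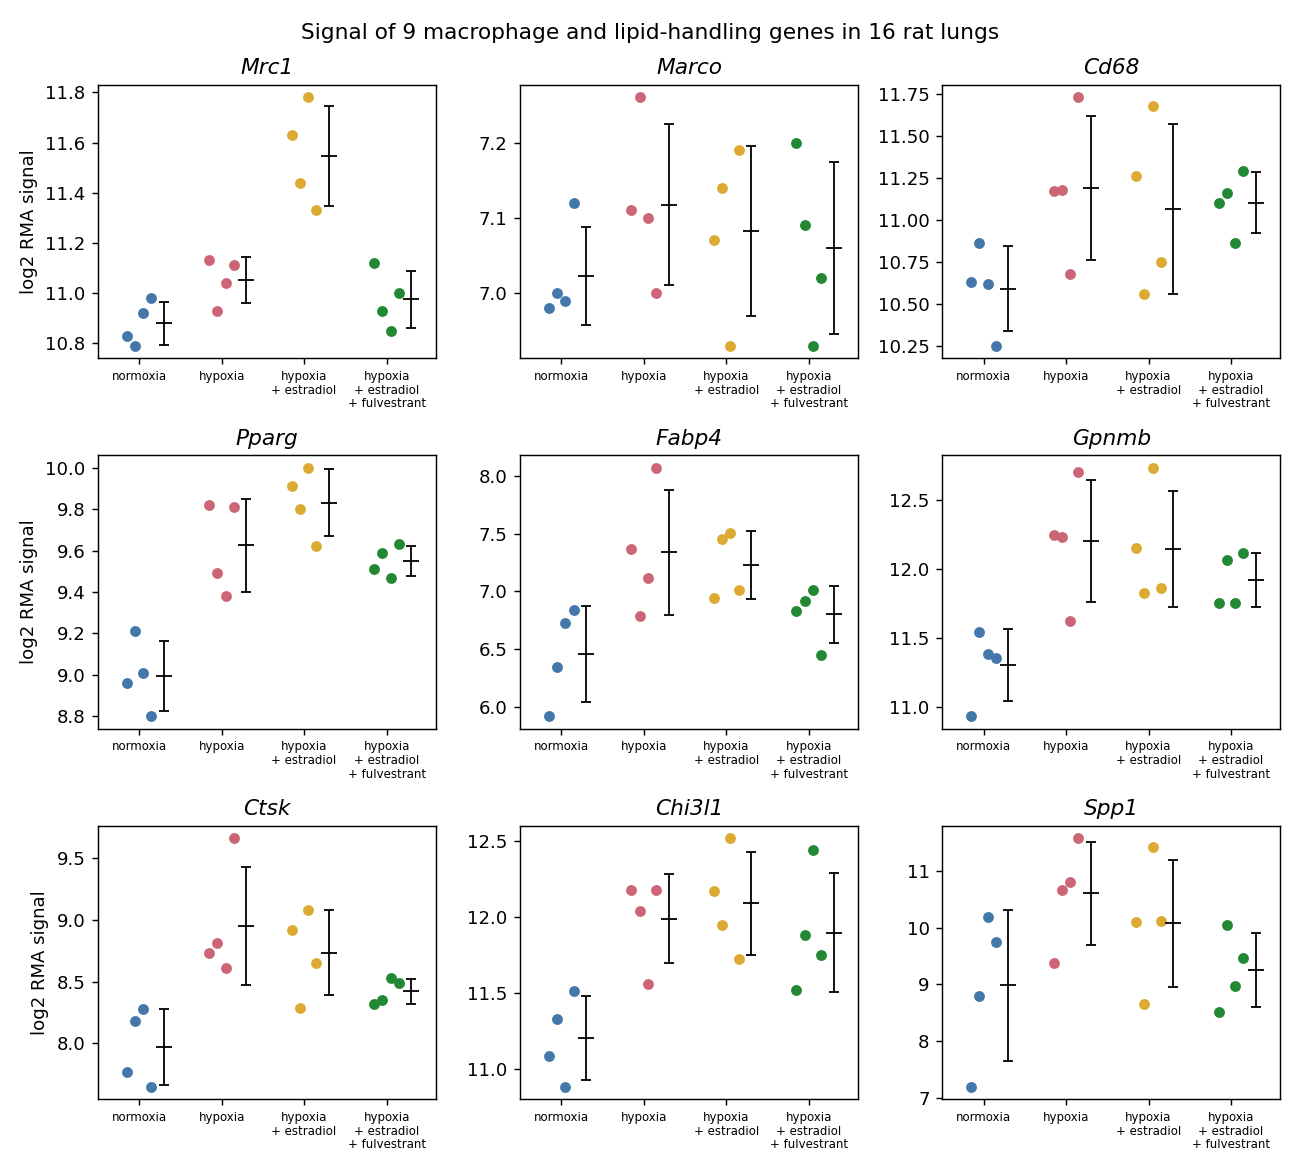
Log2 value (vertical axis) of each of the 9 genes in the 16 arrays, 1 point per rat, with the mean and SD of each group of 4. Pparg, Ctsk, Gpnmb and Chi3l1 have every hypoxia array above every normoxia array, and Mrc1 has every array of hypoxia with estradiol (11.33 to 11.78) above all others.

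Pparg, the fatty acid receptor, had log2 values of 8.96, 9.21, 9.01 and 8.80 in normoxia and 9.82, 9.49, 9.38 and 9.81 in hypoxia. The lowest hypoxia array stood above the highest normoxia array. The difference was 0.63 (SE 0.11; 95% interval 0.40 to 0.86; 1.55-fold; limma adjusted p = 0.00284). Fabp4, the carrier, had 5.92, 6.35, 6.73 and 6.84 in normoxia and 7.37, 6.79, 7.12 and 8.07 in hypoxia. Fabp4 was dim, at percentile 27.4 of all genes by mean value. Its groups overlapped at hypoxia replicate 2, which lay just under normoxia replicate 4, and the difference of 0.88 (SE 0.25; 1.84-fold) had a limma adjusted p of 0.0476.

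Ctsk, the protease, had log2 values of 7.77, 8.18, 8.28 and 7.65 in normoxia and 8.73, 8.81, 8.61 and 9.66 in hypoxia. All hypoxia arrays were above all normoxia arrays, and hypoxia replicate 4 stood highest. The difference was 0.98 (SE 0.21; 95% interval 0.53 to 1.43; 1.98-fold; limma adjusted p = 0.0115). Gpnmb, whose window is printed above, had 10.93, 11.54, 11.38 and 11.35 in normoxia and 12.24, 12.23, 11.62 and 12.70 in hypoxia. The groups were apart, though hypoxia replicate 3 came within reach of the highest normoxia array. The difference was 0.90 (SE 0.22; 95% interval 0.43 to 1.36; 1.86-fold; limma adjusted p = 0.0241). Chi3l1, the chitinase-like protein, had 11.08, 11.33, 10.88 and 11.51 in normoxia and 12.18, 12.04, 11.56 and 12.18 in hypoxia. The same hypoxia replicate was again lowest and lay only just above normoxia replicate 4. The difference was 0.79 (SE 0.21; 95% interval 0.35 to 1.23; 1.73-fold; limma adjusted p = 0.0365).

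Spp1, the secreted integrin ligand, varied most between rats of 1 group. Its log2 values were 7.20, 8.79, 10.19 and 9.75 in normoxia and 9.38, 10.66, 10.81 and 11.57 in hypoxia. Normoxia already spanned from 7.20 to 10.19, and the groups overlapped. The difference of 1.62 had a 95% interval of 0.27 to 2.98 and a limma adjusted p of 0.158. Cd68, the lysosomal glycoprotein, lay between 10.25 and 10.86 in normoxia and between 10.68 and 11.73 in hypoxia, a difference of 0.60 (95% interval 0.11 to 1.09; limma adjusted p = 0.147). Marco, the scavenger receptor, kept to a narrow range, from 6.98 to 7.12 in normoxia and from 7.00 to 7.26 in hypoxia. The difference was 0.09 (95% interval -0.06 to 0.25, limma adjusted p = 0.524). Marco was dim, at percentile 28.8 of all genes by mean value, so its flat values say little about the receptor.

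The calls for Pparg and Ctsk held in 16 of 17 other ways of processing, and ended when normoxia replicate 4 was counted as hypoxia, which left 0 of the 9 genes called. Gpnmb was called in 12 of the 17, Chi3l1 in 9 and Fabp4 in 7; 2 of the 9 genes were called without normoxia replicate 1, hypoxia replicate 1 or hypoxia replicate 4, and 3 without normoxia replicate 2 or hypoxia replicate 2.

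**Figure D2:**
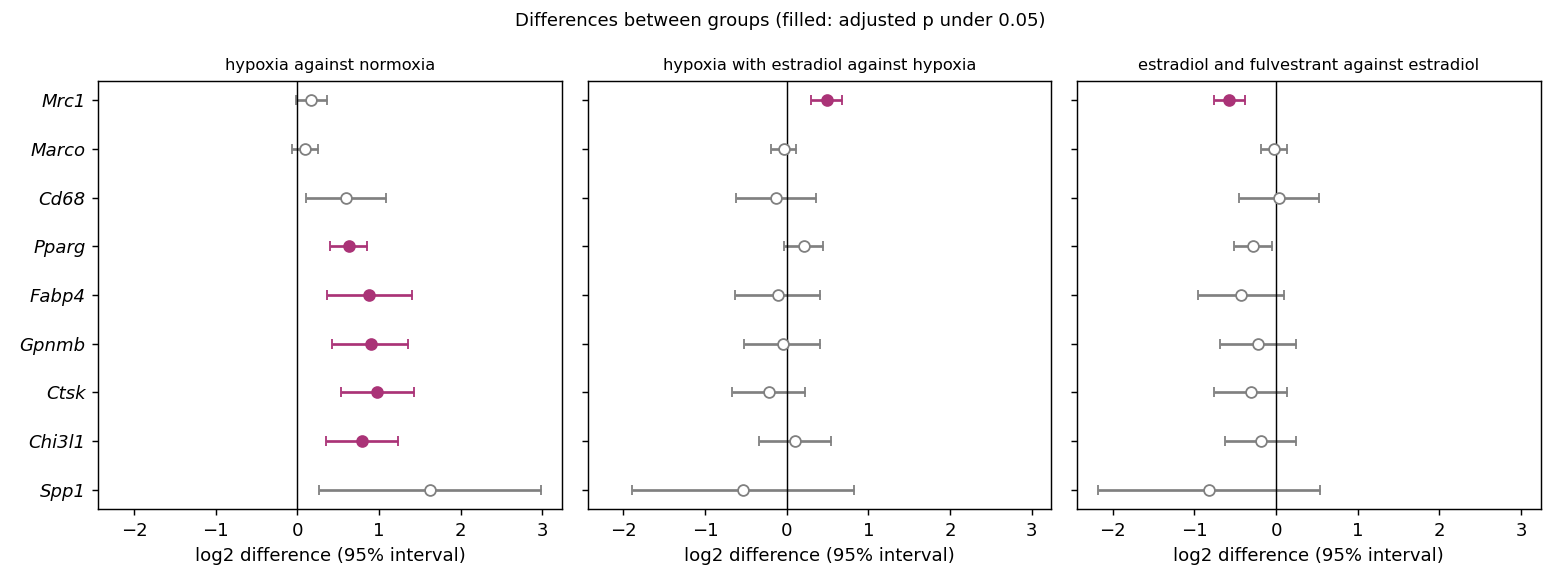
Log2 difference (horizontal axis) with its 95% interval for each of the 9 genes in the 3 main comparisons, with filled points for an adjusted p under 0.05. In hypoxia against normoxia 5 genes are filled, and in each of the other comparisons Mrc1 is.

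Hypoxia with estradiol against hypoxia asks what the hormone added. Mrc1, the mannose receptor, was higher with estradiol, by 1.40-fold, and the other 8 genes did not pass the test. Its log2 values were 10.83, 10.79, 10.92 and 10.98 in normoxia, 11.13, 10.93, 11.04 and 11.11 in hypoxia, and 11.63, 11.44, 11.78 and 11.33 with estradiol. Each estradiol array stood above every array of the other groups, and normoxia and hypoxia overlapped. The difference from hypoxia was 0.49 (SE 0.09; 95% interval 0.30 to 0.68; limma adjusted p = 0.0362), the gene being 16th of all genes by p. The 1 call of the 9 was upward, where 0.310% of all genes were called higher and 0.462% lower. The median difference of the 9 genes was -0.05, against -0.02 over all genes.

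The genes called higher in hypoxia were not called changed when estradiol was added. Pparg had 9.91, 9.80, 10.00 and 9.62 with estradiol, a difference from hypoxia of 0.21 (95% interval -0.03 to 0.44; limma adjusted p = 0.371). Ctsk had 8.92, 8.29, 9.08 and 8.65, a difference of -0.22 (95% interval -0.67 to 0.23; limma adjusted p = 0.657). For Gpnmb the difference was -0.05 (95% interval -0.52 to 0.41), for Chi3l1 0.10 (-0.34 to 0.54) and for Fabp4 -0.11 (-0.63 to 0.41). The intervals of Ctsk, Gpnmb, Chi3l1 and Fabp4 leave room for a difference in either direction.

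Adding fulvestrant to estradiol in hypoxia asks what blocking the receptors did. Mrc1 was lower with fulvestrant, by 1.48-fold, and again was the 1 gene of the 9 to pass the test. Its log2 values with fulvestrant were 11.12, 10.93, 10.85 and 11.00, all below the lowest estradiol array and within the range spanned by the normoxia and hypoxia arrays. The difference was -0.57 (SE 0.09; 95% interval -0.76 to -0.38; limma adjusted p = 0.0403), the 3rd of all genes by p. In this comparison 0.0276% of all genes were called lower and 0.0207% higher. Of the 9 differences 8 were negative, with a median of -0.28 against 0.00 over all genes. Pparg had 9.51, 9.59, 9.47 and 9.63, a difference from estradiol of -0.28 (95% interval -0.52 to -0.05; limma adjusted p = 0.234), and Ctsk had 8.32, 8.35, 8.53 and 8.49, a difference of -0.31 (-0.76 to 0.14; limma adjusted p = 0.542).

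Both Mrc1 comparisons use the same 4 estradiol arrays, so they are not independent. The size of the differences stayed between 0.41 and 0.56 against hypoxia and between -0.64 and -0.49 for fulvestrant, while the call held in 8 and 9 of 18 other ways of processing, with adjusted p up to 0.218 and 0.179. The count fell to 0 of 9 without hypoxia replicate 1, 2 or 4 or estradiol replicate 2 or 3 in the first comparison, and without estradiol replicate 1 or 3 or any 1 of the 4 fulvestrant arrays in the second.

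Marker lists of other cells moved in the same arrays. Averaged over 12 neutrophil genes, log2 values relative to the normoxia mean were 0.25, 1.08, 0.92 and 0.27 in the estradiol arrays, between -0.73 and -0.13 in hypoxia and between -0.11 and 0.20 with fulvestrant, and 7 of the 12 were called higher with estradiol. Without estradiol replicates 2 and 3, the highest of these, the Mrc1 difference of estradiol from hypoxia was 0.43 (limma adjusted p = 0.218). That of fulvestrant from estradiol was -0.51 (limma adjusted p = 0.179). The 9 immediate early genes, which many stimuli switch on fast, had means of 0.32, 1.95, 1.15 and 0.30 in the estradiol arrays, 0.30, 1.03, 0.00 and 0.15 in hypoxia and 0.15 to 0.59 with fulvestrant. Estradiol replicates 1 and 4 did not stand apart from hypoxia in this list. The 12 capillary endothelium genes lay between -0.40 and -0.10 with estradiol, against -0.04 to 0.17 in hypoxia, with 2 called lower. The 10 fibroblast genes lay between -0.23 and -0.01 with estradiol and between 0.02 and 0.22 in hypoxia, with 1 called lower. The part of these lists in the Mrc1 result was not tested.

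For the hypoxia result, 12 adipocyte genes lay between -0.05 and 0.07 in normoxia and between -0.04 and 0.13 in hypoxia, with 0 called (limma; 1 at an unadjusted p under 0.05), and Adipoq, the fat cell hormone, was at 6.23 in both. The 6 erythrocyte genes had means of 2.06, 1.67, -0.08 and 1.84 in the hypoxia arrays and -0.15 to 0.21 in normoxia, with 1 called higher. Hypoxia replicate 3, the low one, was also the lowest hypoxia array for 5 of the 9 genes. The estradiol group went the other way: its replicate 3 had its lowest erythrocyte mean (-0.21) and was its highest array for 8 of the 9 genes. Monocyte and interstitial macrophage genes, 15 in all, had means of -0.03 to 0.05 in normoxia and -0.10 to 0.17 in hypoxia, with 4 called higher and 1 lower. Named after their values were seen, these were the complement genes C1qa (0.60), C1qb (0.66) and C1qc (0.67) with Folr2 (0.63), and Lyve1 (-2.23), a hyaluronan receptor that lymphatic vessels also carry. The 12 capillary endothelium genes had means of -0.10 to 0.11 in normoxia and -0.04 to 0.17 in hypoxia, with 3 called higher, Rbp7 (1.95), Gpihbp1 (0.86) and Aplnr (0.35), and 2 lower, Plvap (-0.83) and Hpgd (-1.66). The 10 fibroblast genes had means of -0.30 to 0.28 in normoxia and 0.02 to 0.22 in hypoxia, with 2 called higher, Fn1 (0.29) and Mfap5 (0.41). These genes too were named after their values were seen. The 12 neutrophil genes had means of -0.37 to 0.18 in normoxia and -0.73 to -0.13 in hypoxia. For 7 cell cycle genes these were -0.29 to 0.29 and 0.11 to 0.49, and for 9 immediate early genes -0.12 to 0.11 and 0.00 to 1.03. By limma 0 genes of these lists were called, with 5, 3 and 0 at an unadjusted p under 0.05. The part of the adipocyte, capillary, fibroblast, erythrocyte, monocyte, neutrophil, cell cycle and immediate early lists in the result was not tested.

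**Figure D3:**
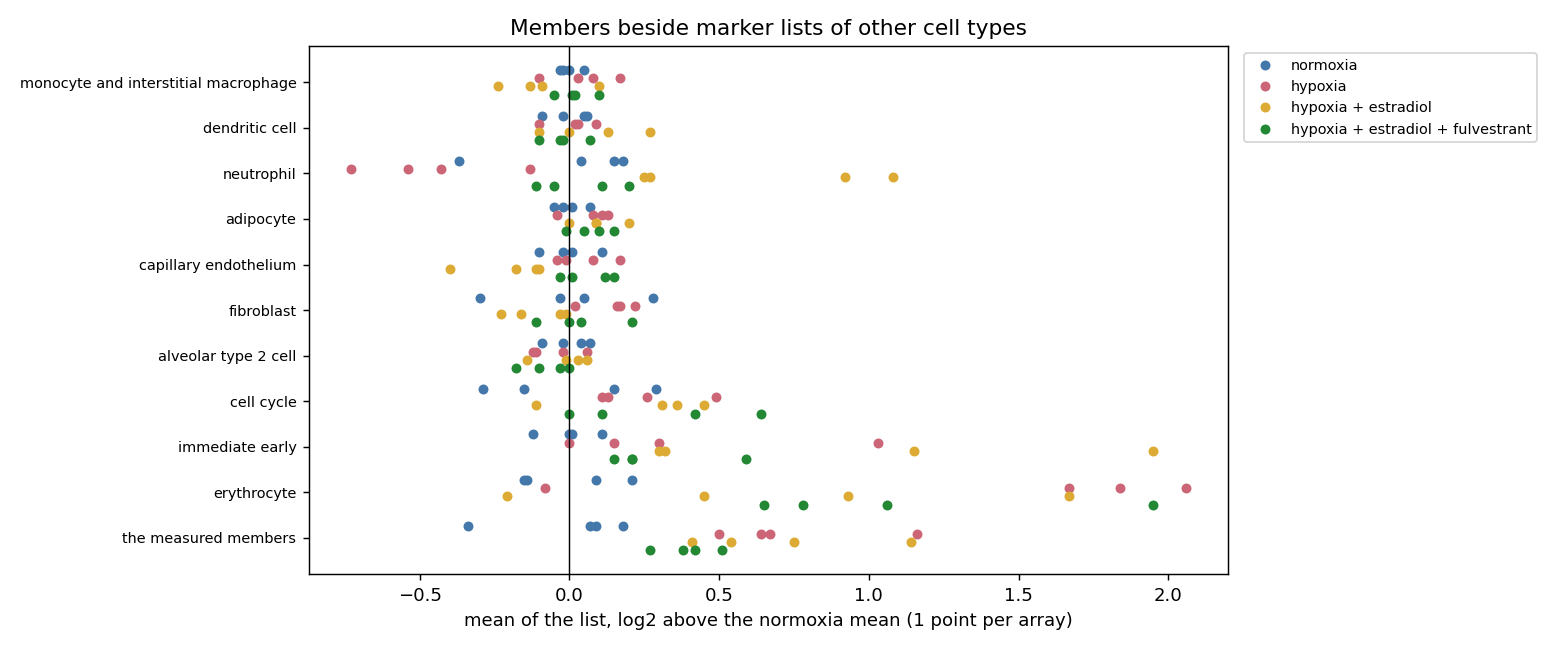
Mean of each marker list, log2 above the normoxia mean (horizontal axis), with 1 point per array and groups in colour. The 9 measured genes (bottom row) lie between 0.50 and 1.16 in hypoxia, and the adipocyte list between -0.04 and 0.13.

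The groups that share the normoxia arrays are set side by side, since comparisons that share controls are not independent. With estradiol, 5 of the 9 genes were called higher than in normoxia (2.87% of all genes): Pparg by 0.84 (SE 0.11; limma adjusted p = 0.000348), Mrc1 by 0.66 (SE 0.09; limma adjusted p = 0.000405), Chi3l1 by 0.89 (limma adjusted p = 0.0213), Gpnmb by 0.84 (limma adjusted p = 0.0359) and Ctsk by 0.76 (limma adjusted p = 0.0481). Fabp4 had 6.94, 7.45, 7.51 and 7.01 with estradiol and did not pass (limma adjusted p = 0.0905). The count of 5 fell to 2 without normoxia replicate 1 or estradiol replicate 3, and to 3 without normoxia replicate 2, 3 or 4 or estradiol replicate 1. Mrc1 and Pparg passed in all 18 alternatives.

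With fulvestrant added, 1 of the 9, Pparg, was called higher than in normoxia (1.97% of all genes), by 0.55 (SE 0.11; 1.47-fold; limma adjusted p = 0.00989). Every fulvestrant array lay above every normoxia array for 5 of the 9 genes, Pparg, Cd68, Chi3l1, Ctsk and Gpnmb, as for 7.13% of all genes. All 9 differences were positive, with a median of 0.45 against 0.00 over all genes. The Mrc1 difference from normoxia was 0.09 (95% interval -0.10 to 0.28), Ctsk 0.45 (limma adjusted p = 0.323), Gpnmb 0.62 (limma adjusted p = 0.168) and Chi3l1 0.70 (limma adjusted p = 0.0905). Against hypoxia without drug, the group with both drugs had 0 of the 9 and 0% of all genes called (limma; 1009 genes and 2 of the 9 at an unadjusted p under 0.05, and 2 genes called when array weights were used or only these 2 groups were fitted). Those 2 of the 9 were Ctsk and Fabp4. Ctsk differed by -0.53 (95% interval -0.98 to -0.08, limma adjusted p = 0.644) and Fabp4 by -0.54 (-1.06 to -0.02, limma adjusted p = 0.706).

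The 9 genes also varied between rats of 1 group. Each array's deviation from its group mean was correlated over the 16 arrays for all 36 pairs of genes; r ranged from -0.63 to 0.85 with a median of 0.38, and 28 of the 36 were positive. Among the pairs, 3 passed a permutation test within groups (100000 permutations, Benjamini-Hochberg over the 36), all with Cd68. For Cd68 and Gpnmb, r was 0.85 (permutation p = 0.0017, adjusted 0.024) and rho was 0.74 (permutation p = 0.0048, adjusted 0.058), with r = 0.75 without the 2 arrays farthest from the median. For Cd68 and Ctsk, r was 0.82 (permutation p = 0.002, adjusted 0.024) and rho was 0.82 (permutation p = 0.0019, adjusted 0.048), with 0.71 without those arrays. For Cd68 and Pparg, r was 0.80 (permutation p = 0.0017, adjusted 0.024) and rho was 0.76 (permutation p = 0.0026, adjusted 0.048), with 0.74 without them. Arrays share their RNA amount and labelling, and these values cannot separate that from the cells. Mrc1 reached no such value with any other of the 9 genes. Marco, a dim gene, was negative with all 8, most so with Ctsk (r = -0.63, permutation adjusted p = 0.15).

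**Figure D4:**
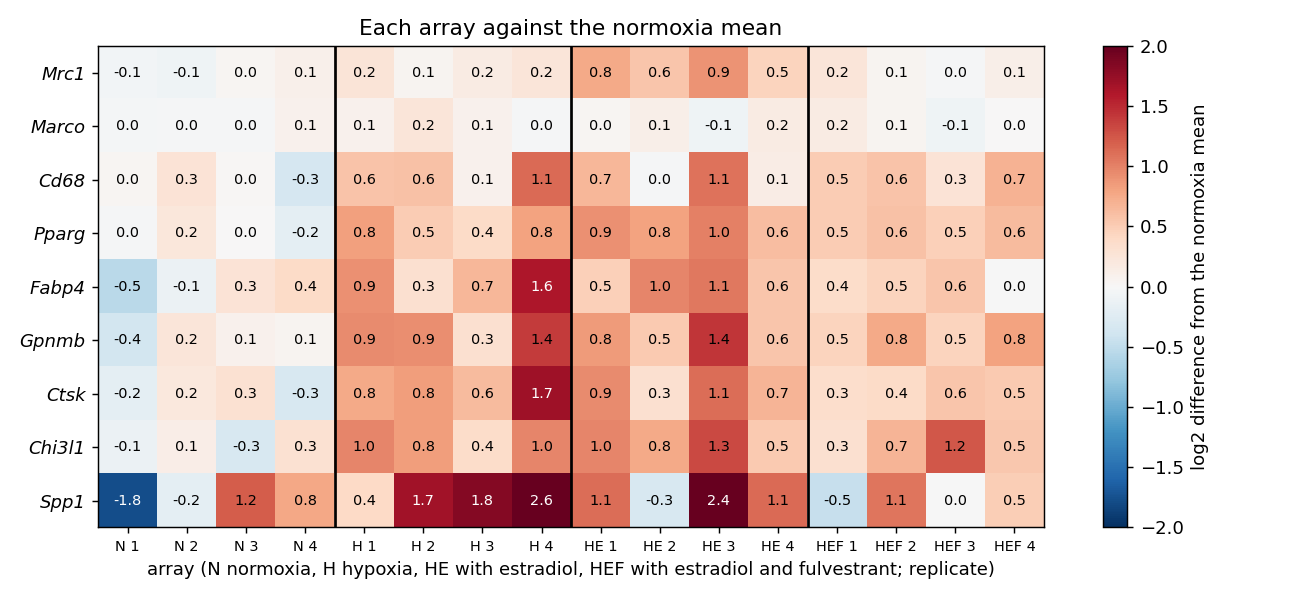
Log2 value of each of the 9 genes relative to its normoxia mean in each of the 16 arrays, from blue (below) to red (above), with colours that end at a difference of 2. Estradiol replicate 3 is the highest of its group for 8 of the 9 genes and hypoxia replicate 4 for 5.

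Genes whose deviations were most like those of a member over the 16 arrays were, for Cd68, Csf2ra and Tyrobp (r = 0.95 each), for Gpnmb Naaa (0.94) and Stxbp2 (0.93), and for Ctsk Acp2 and Prg4 (0.93 each). For Pparg they were Vdac2 (0.89) and Tbxas1 (0.88), for Fabp4 Atp6ap2 (0.88) and Nsfl1c (0.86), and for Chi3l1 Polr1e (0.88) and Ddx31 (0.86). For Mrc1 they were Rps13 (0.83) and Dnase1l3 (0.82), for Spp1 Acaca (0.92) and Sftpd (0.89), and for Marco Krt85 (0.92) and Krt24 (0.91), both keratins. They are the highest of 14506 candidates, which makes high values common.

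Other genes of the same biology were read against the shares of all genes called in hypoxia, 3.21% higher and 2.43% lower. Of 19 other alveolar macrophage genes 4 rose and 0 fell (median 0.29 against 0.03 over all genes): Olr1, a receptor for oxidised lipoprotein, by 1.17 (SE 0.15; limma adjusted p = 0.000242), Bhlhe40, a transcription factor, by 0.83 (limma adjusted p = 0.0486), Plet1 by 0.62 (limma adjusted p = 0.0486) and the sterol exporter Abcg1 by 0.34 (limma adjusted p = 0.024). Of 24 lipid uptake, storage and efflux genes 3 rose and 0 fell: Abcg1, the oxysterol receptor Nr1h3 by 0.42 (limma adjusted p = 0.0234) and the lipoprotein receptor Scarb1 by 0.40 (limma adjusted p = 0.0446). Of 22 lysosome genes 2 rose and 0 fell, Cd63 by 0.41 (limma adjusted p = 0.0389) and progranulin, Grn, by 0.31 (limma adjusted p = 0.00701). Of 13 alternative activation genes 2 rose, arginase Arg1 by 0.66 (limma adjusted p = 0.00856) and the folate receptor Folr2 by 0.63 (limma adjusted p = 0.0421), and of 12 regulators 1 rose, the transcription factor Maf by 0.35 (limma adjusted p = 0.00755). Of 13 integrin chains, receptors and nuclear partners related to the listed genes, 2 fell and 0 rose. The 2 were the integrin chains Itga4, lower by 0.46 (limma adjusted p = 0.0181), and Itgad, lower by 0.37 (limma adjusted p = 0.0459). Of 16 lipid-associated macrophage genes 1 rose, again Cd63, and of 8 osteoclast genes 0 were called (1 at an unadjusted p under 0.05). Lists share members such as Cd63 and Abcg1, and most hold only 1 or 2 calls. The calls of Olr1, Arg1, Grn and Maf held in 16 of 17 other ways of processing, those of Itga4 in 13, Nr1h3 in 11, Abcg1 in 10 and Scarb1 in 9. Those of Plet1, Cd63, Folr2 and Itgad held in 8, and that of Bhlhe40 in 4, with an adjusted p up to 0.414.

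With estradiol, where 0.310% of all genes were called higher, 1 of the 24 lipid genes rose, Soat1, which esterifies cholesterol for storage, by 0.51 (SE 0.10; limma adjusted p = 0.0362), and it was -0.44 with fulvestrant (limma adjusted p = 0.076). The Soat1 call held in 7 of 18 other ways of processing, with a difference down to 0.29 and an adjusted p up to 0.268. The other lists had 0 called by limma, with between 0 and 7 of their genes at an unadjusted p under 0.05. With fulvestrant 0 were called in each of the 8 lists, with medians from -0.22 to -0.03 and between 0 and 8 genes at an unadjusted p under 0.05. Cx3cr1, the receptor of patrolling monocytes, was chosen after its values were seen as a mirror of Mrc1: it had means of 9.99 in normoxia and hypoxia, 9.25 with estradiol and 9.97 with fulvestrant. The difference was -0.74 (SE 0.12; limma adjusted p = 0.0295) for estradiol and 0.72 (SE 0.12; limma adjusted p = 0.0403) for fulvestrant, and each call held in 8 of 18 other ways of processing. Cd163, another scavenger receptor of resident macrophages, differed by 0.08 with estradiol (95% interval -0.25 to 0.40). With fulvestrant it differed from estradiol by -0.27 (95% interval -0.59 to 0.06). Of the 15 monocyte and interstitial macrophage genes, Cx3cr1 was the 1 called in each comparison, and 14 were not called. With estradiol 7 of the 15 differences were positive (median -0.01), where 0.462% of all genes were called lower. At an unadjusted limma p under 0.05 there were 5 genes, all lower. Beside Cx3cr1 they were Adgre1 (-0.41), C1qa (-0.30), C1qb (-0.32) and C1qc (-0.37). With fulvestrant 10 of the 15 were positive (median 0.08), where 0.0207% of all genes were called higher. There 3 genes had an unadjusted limma p under 0.05.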

How the data were processed

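Per the submitters' processing notes, the authors deposited log2 values made with RMA and Partek, without versions or settings; RMA corrects background, aligns the arrays and summarises probe sets, and compresses differences of dim ones. The genome build is not given in the sources used here. Array medians lay between 7.69 and 7.77. Of 29214 probe sets, 15310 had 1 gene symbol, 323 several and 13581 none; for genes with several the probe set with the highest mean over the 16 arrays was taken, giving 14506 genes. Arrays carry no depth: 4 per group limit the precision.

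Groups came from sample titles. Group means were fitted over all 16 arrays with limma 3.58.1 in R 4.3.3, with Benjamini-Hochberg adjustment; the script was tested on simulated data. The genes and lists were chosen with earlier results of these data known. Named genes are the 10 members, up to 3 called genes with the largest difference per list and comparison, and the 2 most alike per member. Sftpc, Adipoq, Cd163, Cx3cr1, Adgre1 and the called genes of the monocyte, capillary and fibroblast lists were named outside this rule, after their values were seen. Alternatives were other normalizations, probe set rules, fits and labels, and leaving out arrays. The limma p-values set group differences against the spread between rats within groups, and do not cover a batch that goes with the groups.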

Additional observations from a re-analysis of the deposited data

Results flagged for a closer look

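Marco in normoxia replicate 4 was 7.12 on the log2 scale, apart from the other 3 normoxia arrays at 6.98 to 7.00. The gap was 0.839 of the group's range, above Dixon's critical value of 0.829 for 4 arrays. It is the array whose treatment field disagrees with its title. Of 36 groups of 4 arrays tested it was the 1 flagged, and chance flags about 1 in 20.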

How the results depend on the processing

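No paired analysis was possible because replicate numbers follow submission order and pair nothing. The count of genes higher in hypoxia was 5; it was 0 with normoxia replicate 4 counted as hypoxia, 3 with every probe set tested and 2 to 5 when 1 array was left out. The count higher with estradiol was 1; it was 0 with normoxia replicate 4 counted as hypoxia, with every probe set, with only the 2 groups in the fit, with array weights and without estradiol replicates 2 and 3, and 0 to 1 when 1 array was left out. The count lower with fulvestrant was 1; it was 0 with every probe set, with only the 2 groups in the fit and without estradiol replicates 2 and 3, and 0 to 1 when 1 array was left out. Estradiol against normoxia gave 3 in place of 5 with normoxia replicate 4 counted as hypoxia, with every probe set and with only the 2 groups, 2 without estradiol replicates 2 and 3, and 2 to 5 when 1 array was left out. Fulvestrant against normoxia gave 0 in place of 1 with normoxia replicate 4 counted as hypoxia and 2 with only the 2 groups or array weights. Normoxia replicate 4 counted as hypoxia took all genes called in hypoxia from 465 higher and 352 lower to 28 and 12, and those called with estradiol from 45 and 67 to 0 and 0; every probe set gave 2 and 2, only the 2 groups 4 and 1, array weights 2 and 2. For fulvestrant, 3 and 4 became 12 and 9 with arrays centred, 23 and 10 with quantile normalization, 16 and 12 without dim genes and 27 and 17 with trended moderation. Without estradiol replicate 4 the counts were 186 and 169 for estradiol and 160 and 171 for fulvestrant; other single arrays left out gave as few as 1 and 2 (hypoxia replicate 2) or 1 and 3 (estradiol replicate 2) for estradiol, and 0 and 0 (fulvestrant replicate 1 or 3) for fulvestrant. The values that changed sign were not called. With estradiol against hypoxia, Marco was 0.02 with quantile normalization and 0.01 without estradiol replicates 2 and 3, Ctsk 0.04, Gpnmb 0.11 and Cd68 0.06 with normoxia replicate 4 counted as hypoxia, Fabp4 0.03 with array weights and Chi3l1 -0.04 without estradiol replicates 2 and 3; leaving out 1 array gave Marco -0.07 to 0.02, Ctsk -0.33 to 0.02, Gpnmb -0.25 to 0.11, Fabp4 -0.30 to 0.13, Chi3l1 -0.04 to 0.22 and Cd68 -0.33 to 0.05. With fulvestrant against estradiol, leaving out 1 array gave Marco -0.08 to 0.02 and Cd68 -0.13 to 0.25; against normoxia Marco -0.01 to 0.08 and Spp1 -0.32 to 0.67; against hypoxia Chi3l1 -0.27 to 0.03 and Cd68 -0.26 to 0.09. With normoxia replicate 4 counted as hypoxia, fulvestrant against hypoxia gave Chi3l1 0.00, Pparg 0.09 and Cd68 0.10. Smaller test groups and a relabelled array are the construction of those settings; the cause of the other changes was not tested.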
